A study of Homo sapiens with 13 samples.

Results

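MCF10A-Src cells taken after 36 h of tamoxifen were compared with the same cells at 0 h, gene by gene, by RNA sequencing. All gene rows with an FPKM (fragments scaled to transcript length and to library size) of 1 or more in either 36 h library or in the 0 h library were taken, which gave 15038 of the 38369 rows of the deposited time-course table. Of these rows 11389 were coding genes and 3649 were lincRNA rows, that is, long intergenic non-coding RNA models named after a neighbouring gene. An FPKM of 1 was reached at both times by 13084 rows, at 36 h alone by 1017 and at 0 h alone by 937, and the values nearest to the limit were 1.00029 inside and 0.999722 outside.

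The 36 h group was MCF10A-Src cells 36 h after tamoxifen (2 libraries) and the 0 h group was MCF10A-Src cells at time zero (1 library). The series also holds cells at 4 h (2 libraries) and 12 h (1 library) of the same course, and parental MCF10A cells 72 h after transduction with LINC00520 (2 libraries) or without it (3 libraries, called untransduced in their titles and mock transduced in their descriptions). The labels list a medium with equine serum, hydrocortisone, cholera toxin, EGF and insulin for all cells, and polyA-selected RNA. They do not say whether replicates are separate cultures. The p-values therefore rest on a spread among these libraries that may be technical only. No library of cells kept for 36 h without tamoxifen was used, so Src activity, tamoxifen itself and time in culture cannot be told apart.

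As background, MCF10A cells come from human breast epithelium and are immortal but form no tumours, although the labels call them a breast cancer cell type. MCF10A-Src carries v-Src, the viral form of the tyrosine kinase Src, fused to the ligand-binding domain of the estrogen receptor. Tamoxifen binds that domain and switches the kinase on, and the cells then pass over days from an epithelial to a transformed state through a loop of NF-kB, interleukin-6 and STAT3 signalling. The files hold RNA levels only, so transformation itself was not measured.

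The libraries held 24024268 and 12576940 fragments at 36 h, against 52335486 at 0 h. The row of ESR1, the estrogen receptor gene whose ligand-binding domain is in the fusion, stood at 1005 and 1002 FPKM at 36 h, against 1558 FPKM at 0 h. At 4 h the row stood at 1385 and 623 FPKM, so libraries of the same time also lay far apart. In the separately normalised table of parental MCF10A cells the same row lay between 0.139 and 0.492 FPKM in 5 libraries. SRC, the cellular gene, had 14.2 and 11.2 CPM at 36 h, against 18.8 CPM at 0 h and did not pass the test (log2 fold change -0.55, SE 0.28, adjusted p = 0.208). The 100 rows with most fragments held 26.4% and 28.5% of all fragments at 36 h, against 17.6% at 0 h, and the single row linc-CCL5 held 2.24% and 5.58% at 36 h, against 1.53% at 0 h. LincRNA rows together held 19.9% and 21.5% of fragments at 36 h and 18.5% at 0 h. In the parental libraries they held 5.96% to 6.31%, and linc-CCL5 held at most 0.0001%. The part of these shares in the results was not tested. All 12 breast epithelial markers had an FPKM of 1 or more in the 3 libraries, with summed levels of 3786 and 3818 FPKM at 36 h, against 4992 FPKM at 0 h.

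Whether the 36 h cells differed from the 0 h cells was tested for every gene in 1 model over all 6 time-course libraries, which share 1 estimate of the spread. Of 15572 genes tested, 11582 coding and 3990 lincRNA rows, 19.4% passed an adjusted p of 0.05 by edgeR's quasi-likelihood test. They included 1556 that were higher at 36 h (9.99% of those tested) and 1458 that were lower (9.36%). Of the 15005 rows described here that could be tested, 1547 rose and 1407 fell. Among coding rows 1263 rose, where 11% of all coding rows tested were higher, and 1056 fell, where 9.39% were lower. By 2-fold or more, 1157 rose, where 7.49% of all genes tested did so, and 970 fell, where 6.55% did. Over all 15572 genes tested the large changes were uneven in direction: 288 rose and 44 fell by 8-fold or more, and 125 rose and 4 fell by 32-fold or more. Among the rows described here, 286 rose and 35 fell by 8-fold or more, and 125 rose and 3 fell by 32-fold or more. The FPKM limit of these rows thus left out more of the large falls than of the large rises. The rows that rose held 31.8% and 32.4% of all fragments at 36 h, against 13.6% at 0 h, and the rows that fell held 3.44% and 3.16% at 36 h, against 9.49% at 0 h.

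The balance of rises and falls depended on the scaling. With each library scaled to its total alone, 1033 genes were called higher and 4001 lower, and the median gene stood at -0.44 on the log2 scale, against -0.08 with the main scaling. With limma on log2(FPKM + 1), 1015 were called higher and 539 lower, and with limma and a pseudocount of 0.1, 905 and 415. DESeq2 called 1741 higher and 1097 lower. Of 187 genes whose values are given here, 23 lost their call with limma on log2(FPKM + 1): ICOSLG, KRT5, FASN, LIF, IL8, OVOL1, KRT10, PLK1, FOXM1, RPL11, RPL12, SEMA3C, NPC1, BCL2, CALR, CD83, CSK, CXCL11, FTH1, HMOX1, IL7R, TIMP3 and ZEB1. With a pseudocount of 0.1, 28 lost it, namely these without LIF, CXCL11 and TIMP3, and C6orf176, CCND2, DNAJB9, AREG, CYR61, FOSB, FTL and PDK4. BCL2, IL7R and FOXM1 did not pass without either 36 h library, STAT3, GPR27 and CSK without the first, and PLK1 and MMP28 without the second. BCL2 and IL7R did not pass with DESeq2, and STAT3 and FTH1 not with library totals alone. The total of 3014 calls was 6054 without the first 4 h library, 5881 without the second, 2190 without the first 36 h library and 1923 without the second. The authors' deposited table of 36 h against 0 h marks 1606 of the tested rows as significantly higher and 1077 as lower, of which 1236 and 889 were called in the same direction here and 0 in the other.

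**Figure D1:**
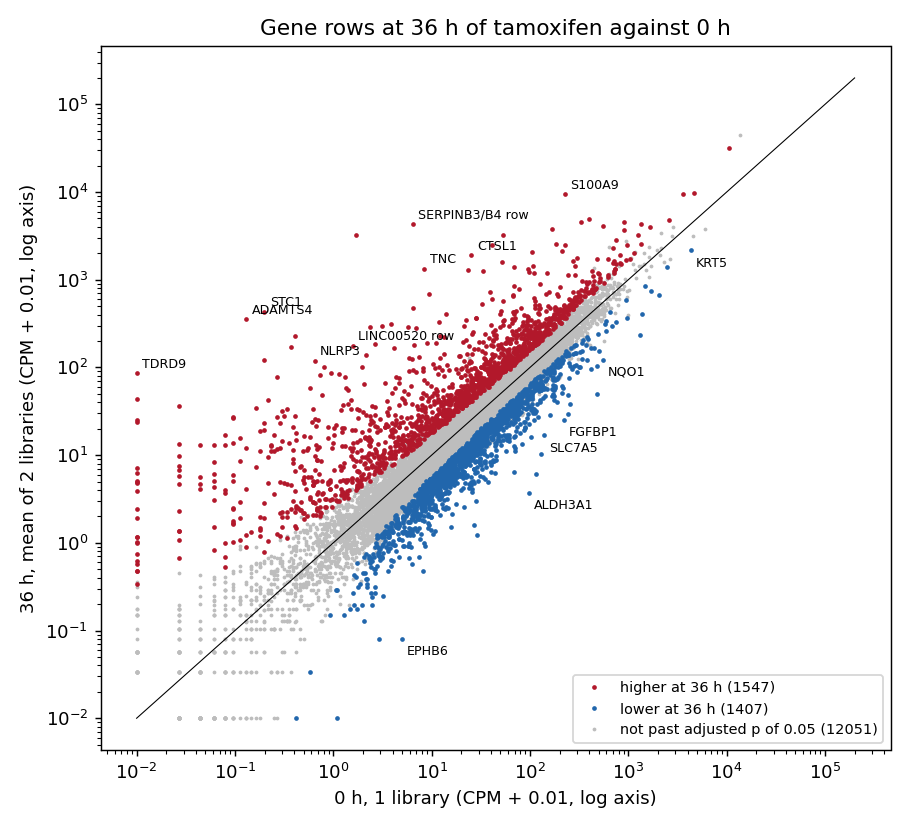
Mean CPM (plus 0.01) of the 2 libraries at 36 h on the vertical axis against the 1 library at 0 h on the horizontal axis, both on log scales, for 15005 rows. Red points (1547) were higher at 36 h and blue points (1407) lower at an adjusted p under 0.05, and the line marks equal levels. The red points reach much farther from the line than the blue ones.

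The largest rises by ratio included secreted proteins and surface receptors. Levels are given in CPM, fragments as a share of the scaled library total, which do not correct for gene length. ADAMTS4, a metalloprotease that cleaves the cartilage proteoglycan aggrecan, had 412 and 295 CPM at 36 h, against 0.12 CPM at 0 h (log2 fold change 11.47, SE 0.46, adjusted p = 1.78e-05). STC1, a secreted glycoprotein hormone, had 457 and 405 CPM at 36 h, against 0.189 CPM at 0 h (log2 fold change 11.12, SE 0.35, adjusted p = 1.07e-05). Both genes were at the edge of detection at 0 h, with 7 and 11 fragments, and both 36 h libraries lay far above. TMPRSS4, a membrane-bound serine protease, had 118 and 125 CPM at 36 h, against 0.189 CPM at 0 h and rose 628-fold. IL24, a cytokine of the interleukin-10 family, had 225 and 228 CPM at 36 h, against 0.395 CPM at 0 h and rose 567-fold. Receptors among them also started near 0. FCAR, the Fc receptor for immunoglobulin A, had 26.7 and 27.3 CPM at 36 h, against 0.0858 CPM at 0 h, and TNFRSF1B, a receptor for tumour necrosis factor, had 15.2 and 12.2 CPM at 36 h, against 0.0858 CPM at 0 h, with log2 fold changes of 8.22 and 7.25.

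Among the other large rises, IL33, a nuclear cytokine released from damaged epithelium, had 75.6 and 80.6 CPM at 36 h, against 0.257 CPM at 0 h (log2 fold change 8.22, SE 0.34). NLRP3, the sensor of an inflammasome that matures interleukin-1 beta, had 125 and 113 CPM at 36 h, against 0.635 CPM at 0 h (log2 fold change 7.54, SE 0.39). TNC, the matrix glycoprotein tenascin C, had 1574 and 1084 CPM at 36 h, against 8.41 CPM at 0 h (log2 fold change 7.30, SE 0.44). In each of these genes the lower 36 h library was more than 100 times above the 0 h library. FGL1, a secreted fibrinogen-like protein, CYTH4, an exchange factor for ARF GTPases, and HEPHL1, a ferroxidase, rose 219-fold, 179.9-fold and 147-fold.

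A few genes with almost no fragments at 0 h were abundant at 36 h. TDRD9, a germline helicase, had 1906 and 892 fragments at 36 h, against 0 at 0 h. Counting 3 fragments as the most that 0 allows at 0 h, it was at least 1704-fold higher. GZMB, granzyme B, a serine protease known from cytotoxic lymphocytes, had 797 and 532 fragments at 36 h, against 0 at 0 h, and was at least 810-fold higher. TRIM40, an E3 ubiquitin ligase, had 517 and 254 fragments at 36 h, against 0 at 0 h, and was at least 470-fold higher. EEF1A2, a translation elongation factor, had 335 and 115 fragments at 36 h, against 1 at 0 h, a ratio of 822 with a 95% interval of 147 to 32552 that covers counting error only. The symbol also stands in another row, joined with EEF1A1, so this ratio is that of 1 row and need not be that of the gene. Such genes, called coding rows of a single symbol with 0 to 3 fragments at 1 time, numbered 30 that rose and 1 that fell. Each needed an FPKM of 1 or more at the other time, and so entered through the time at which it was high. Over all genes tested, 9.99% rose and 9.36% fell. The 0 h library was also deeper than those at 36 h, so these counts are no measure of direction.

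The falls were smaller. ALDH3A1, an aldehyde dehydrogenase that detoxifies aldehydes in epithelia, had 3.64 and 3.81 CPM at 36 h, against 96.9 CPM at 0 h (log2 fold change -4.70, SE 0.22, adjusted p = 2.52e-05). CAMK2B, a calcium/calmodulin-dependent kinase subunit, had 1.56 and 1.58 CPM at 36 h, against 27 CPM at 0 h (log2 fold change -4.10, SE 0.29, adjusted p = 9.12e-05). FGFBP1, which carries fibroblast growth factors out of the matrix, had 24.9 and 25.3 CPM at 36 h, against 219 CPM at 0 h (log2 fold change -3.13, SE 0.17, adjusted p = 3.77e-05). The 36 h libraries lay close together and far below the 0 h library in all of these. MYPN, ANKRD1 and ANKRD2 encode partners of the giant muscle protein titin, and they fell 17.4-fold, 11.2-fold and 9.34-fold. KRT86, a hair keratin, RXFP1, the relaxin receptor, and ICOSLG, a ligand of a T-cell co-stimulator, fell 12.8-fold, 15-fold and 10.4-fold. GPR27, an orphan receptor, fell 9.84-fold, and C6orf176 and C4orf18 fell 13.1-fold and 9.88-fold. GPR27 did not pass without the first 36 h library (log2 fold change -2.76, adjusted p = 0.07). EPHB6, an Eph receptor without kinase activity, had 3 and 0 fragments at 36 h, against 288 at 0 h, a ratio of 52.5 (95% interval 17.8 to 256).

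Genes named below from the lists beyond the 4 of smallest p in each were chosen after their values were seen.

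**Figure D2:**
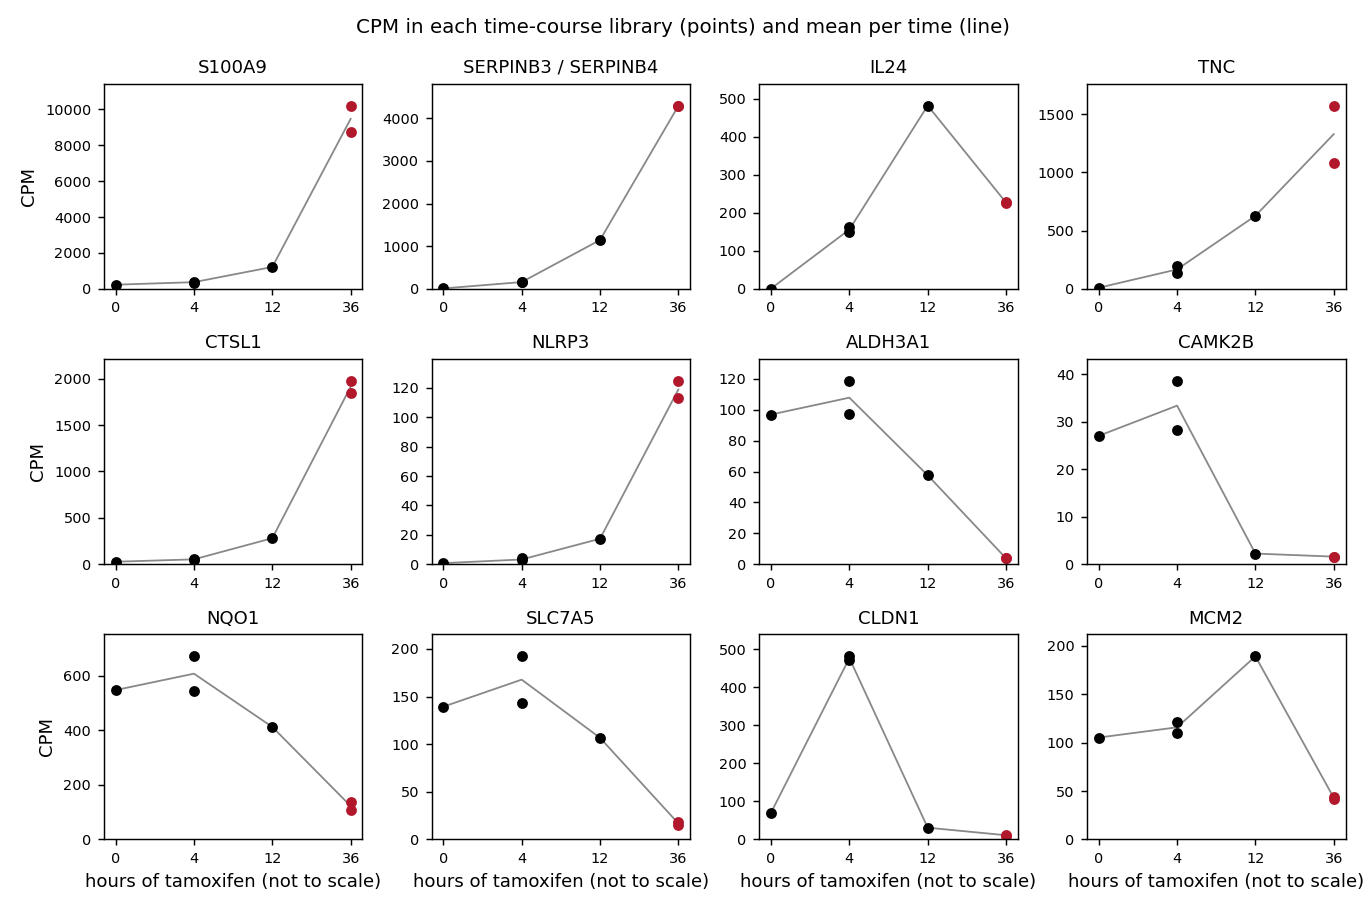
CPM of 12 genes in each of the 6 time-course libraries (points, red at 36 h) and the mean at each time (line), at 0, 4, 12 and 36 h of tamoxifen, with the times evenly spaced on the axis. IL24 was at 481 CPM at 12 h and at 225 and 228 at 36 h, CLDN1 was at 481 and 471 CPM at 4 h and at 9.98 and 12.1 at 36 h, and S100A9 and CTSL1 were at their highest at 36 h.

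By amount rather than by ratio, S100A9 changed most among coding genes. S100A9 and S100A8 form calprotectin, a calcium- and zinc-binding protein of neutrophils and inflamed epithelium. S100A9 had 8733 and 10214 CPM at 36 h, against 225 CPM at 0 h (log2 fold change 5.40, SE 0.30, adjusted p = 3.77e-05), and S100A8 had 3086 and 3447 CPM at 36 h, against 52.7 CPM at 0 h (log2 fold change 5.95, SE 0.33, adjusted p = 3.77e-05). Together they took 1.04% and 1.17% of all fragments at 36 h, against 0.0309% at 0 h. Acute phase proteins are plasma proteins that the liver and many epithelia make on interleukin-6 and interleukin-1, and among acute phase and calprotectin genes 16 of 19 measured rose and 0 fell, with a median log2 fold change of 4.41 against -0.08 over all genes tested. SERPINA1, the inhibitor of neutrophil elastase, had 1557 and 1645 CPM at 36 h, against 52 CPM at 0 h. SAA1 and SAA2, the inducible serum amyloid A genes, rose by 3.32 and 4.77 on the log2 scale and HP, haptoglobin, by 6.37. The row that joins SERPINA3, an inhibitor of chymotrypsin-like proteases, with SERPINA5 had 1272 and 1299 CPM at 36 h, against 23.7 CPM at 0 h. C3, complement component 3, had 285 and 267 CPM at 36 h, against 262 CPM at 0 h, and CEBPD, a transcription factor of the acute phase, had 41.1 and 57.1 CPM at 36 h, against 75 CPM at 0 h, and neither passed (adjusted p = 0.868 and 0.115). The count of 16 rises stayed at 16 without any 1 of the libraries at 4, 12 or 36 h.

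Serpins of clade B inhibit proteases inside epithelial cells. The row that joins SERPINB3 and SERPINB4, the squamous cell carcinoma antigens, had 4298 and 4283 CPM at 36 h, against 6.43 CPM at 0 h (log2 fold change 9.38, SE 0.32, adjusted p = 1.07e-05). These genes are near-identical and cannot be separated here. Of 8 SERPINB rows, 5 rose and 0 fell, and of 16 S100 rows, 8 rose and 0 fell, families picked after the values were seen. SERPINB1, an inhibitor of neutrophil proteases picked in the same way, had 2260 and 2694 CPM at 36 h, against 41 CPM at 0 h. NAMPT, the rate-limiting enzyme of NAD salvage, had 4647 and 5142 CPM at 36 h, against 394 CPM at 0 h (log2 fold change 3.64, SE 0.25). SOD2, the mitochondrial superoxide dismutase, had 4291 and 4702 CPM at 36 h, against 334 CPM at 0 h (log2 fold change 3.75, SE 0.30).

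The promoters of 5 of the genes above and below are shown because they hold matches to motifs of factors that act on inflammatory and S-phase genes. Each is the 250 bases before the RefSeq gene start, from RefSeq's GRCh38.p14 assembly, 5′ to 3′ on the gene's strand. Capitals mark matches on either strand to TTCNNNGAA (STAT factors), TGANTCA (AP-1), TTNNGNAAT (C/EBP factors) or TTTNGCGC (E2F). S100A9, at chr1:153357604-153357853, plus strand, holds 1 C/EBP match that starts 174 bases before the gene start. IL1B, at chr2:112836780-112837029, minus strand, holds a STAT match 180 bases and a C/EBP match 91 bases before the start. IL1A, at chr2:112784494-112784743, minus strand, holds C/EBP matches 199 and 33 bases and an AP-1 match 12 bases before the start. GZMB, at chr14:24634191-24634440, minus strand, holds an AP-1 match 214 bases before the start, and E2F1, at chr20:33686386-33686635, minus strand, an E2F match 20 bases before it.
S100A9: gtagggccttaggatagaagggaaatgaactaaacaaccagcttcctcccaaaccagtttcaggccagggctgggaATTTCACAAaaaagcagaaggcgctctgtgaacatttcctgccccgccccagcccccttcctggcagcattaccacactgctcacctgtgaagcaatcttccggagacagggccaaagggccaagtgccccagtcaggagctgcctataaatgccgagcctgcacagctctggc
IL1B: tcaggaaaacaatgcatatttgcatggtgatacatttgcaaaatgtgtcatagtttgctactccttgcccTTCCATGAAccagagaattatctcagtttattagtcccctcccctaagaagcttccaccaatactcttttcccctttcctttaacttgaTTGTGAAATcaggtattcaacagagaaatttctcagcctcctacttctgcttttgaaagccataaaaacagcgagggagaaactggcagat
IL1A: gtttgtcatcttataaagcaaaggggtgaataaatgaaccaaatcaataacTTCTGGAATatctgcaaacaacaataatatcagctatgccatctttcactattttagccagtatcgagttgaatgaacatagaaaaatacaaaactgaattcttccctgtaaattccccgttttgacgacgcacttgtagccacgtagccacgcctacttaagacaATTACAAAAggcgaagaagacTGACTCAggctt
GZMB: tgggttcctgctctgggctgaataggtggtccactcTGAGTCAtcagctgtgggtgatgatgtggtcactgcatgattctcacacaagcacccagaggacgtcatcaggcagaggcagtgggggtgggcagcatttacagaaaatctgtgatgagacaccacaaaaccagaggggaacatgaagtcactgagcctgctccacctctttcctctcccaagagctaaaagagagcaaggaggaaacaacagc
E2F1: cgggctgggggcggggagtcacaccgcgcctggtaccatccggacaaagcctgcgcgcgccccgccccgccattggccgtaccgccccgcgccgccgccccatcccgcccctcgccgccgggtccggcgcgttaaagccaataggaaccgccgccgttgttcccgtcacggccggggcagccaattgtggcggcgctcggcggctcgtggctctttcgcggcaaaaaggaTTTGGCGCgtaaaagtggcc

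A match is a run of letters and says nothing about binding. Among 612 promoters found for genes that rose by 2-fold or more, 7.35% held the AP-1 letters, against 4.18% of 455 for genes that fell by as much, 3.88% of 7624 for all tested genes of this comparison and 6.60% of 27305 for all promoters in the table. C/EBP letters were in 8.01% of promoters of the genes that rose, 5.05% of those that fell, 5.31% of tested genes and 10.0% of all promoters. STAT letters were in 5.72%, 4.18%, 5.77% and 6.78% in the same order, and E2F letters in 1.14%, 3.52%, 2.53% and 1.54%. No test was made of these shares.

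Interleukin-6 family cytokines act through JAK kinases and STAT3, and SOCS proteins are the feedback inhibitors of that path. Of the IL-6 family and STAT3 list, 7 of 20 measured rose and 1 fell (median log2 fold change 0.49). SOCS3 had 417 and 387 CPM at 36 h, against 14 CPM at 0 h (log2 fold change 4.84, SE 0.28, adjusted p = 4.52e-05). JAK2 had 43.4 and 47.2 CPM at 36 h, against 20.9 CPM at 0 h and rose 2.16-fold. STAT3 had 512 and 450.4 CPM at 36 h, against 265 CPM at 0 h (log2 fold change 0.86, SE 0.20, adjusted p = 0.0197), but did not pass without the first 36 h library (adjusted p = 0.101) or with each library scaled to its total (adjusted p = 0.0767). LIF, a cytokine of the family, fell at 36 h, with 6.24 CPM at 0 h, 50.3 and 62.7 at 4 h, 24.9 at 12 h and 1.99 and 1.86 at 36 h, so that 0 h was below 4 h and 12 h and above 36 h. The count of rises in this list was between 3 (without the first 36 h library) and 10 (without the first 4 h library), and with library totals alone 4 rose and 4 fell.

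Among Src substrates and adaptors, 4 of 18 measured rose and 1 fell. PAG1, a membrane adaptor that recruits the Src inhibitor CSK, had 113 and 90.2 CPM at 36 h, against 12 CPM at 0 h (log2 fold change 3.09, SE 0.25, adjusted p = 0.000186). GAB2, a docking adaptor of receptor kinases, had 21.3 and 14.9 CPM at 36 h, against 3.91 CPM at 0 h and rose 4.65-fold. CSK itself, the kinase that holds Src family members inactive, had 12.2 and 13.1 CPM at 36 h, against 26.5 CPM at 0 h and fell 2.1-fold. Without 1 library the list had 3 to 8 rises (fewest without the first 36 h library, most without the first 4 h library) and 0 to 3 falls (fewest without the first 36 h library, most without the first 4 h library). LINC00520, the lincRNA over-expressed in the other experiment, is the row linc-TBPL2-2 at chr14:56243908-56263392 (hg19), with 1.56 CPM at 0 h, 1.52 and 0.914 at 4 h, 14.4 at 12 h and 158 and 197 at 36 h (log2 fold change 6.83, SE 0.37, adjusted p = 3.77e-05).

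NF-kB is the transcription factor family that drives inflammatory genes and its own inhibitors. Of these targets and inhibitors 13 of 23 measured rose and 1 fell (median log2 fold change 0.98). CCL20, a chemokine for dendritic and T cells, had 113 and 141 CPM at 36 h, against 5.9 CPM at 0 h (log2 fold change 4.42, SE 0.33, adjusted p = 0.000129). IL1B, an interleukin-1 cytokine, had 104 and 94.4 CPM at 36 h, against 27.5 CPM at 0 h. IL1A, the other, had 218 and 213 CPM at 36 h, against 71.4 CPM at 0 h. BIRC3, an inhibitor of cell death downstream of tumour necrosis factor receptors, had 507 and 531 CPM at 36 h, against 113 CPM at 0 h. TNFAIP3, a deubiquitinase that dampens NF-kB, rose 2.83-fold, and CD83, a marker of mature dendritic cells, fell 4.71-fold. Among chemokines 5 of 10 measured rose and 1 fell: CXCL3, CXCL1 and IL8, which attract neutrophils, rose 39.7-fold, 4.76-fold and 5.53-fold, and CXCL11, a T-cell chemokine below an FPKM of 1 in the 3 libraries, had 0 fragments in both 36 h libraries, against 60 at 0 h.

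Receptors and ligands of the interleukin families went beyond these lists. Of 41 interleukin and interleukin receptor rows, a family picked after the values were seen, 17 rose and 4 fell. IL1R2, the decoy receptor for interleukin-1, had 87.7 and 79.1 CPM at 36 h, against 1.13 CPM at 0 h, and IL13RA2, the decoy receptor for interleukin-13, had 71.3 and 84.7 CPM at 36 h, against 1.3 CPM at 0 h. IL7R, the interleukin-7 receptor, had 0.615 and 0.743 CPM at 36 h, against 2.06 CPM at 0 h and fell. Of 11 TNF receptor rows 6 rose and 0 fell. Of interferon-stimulated genes 11 of 33 measured rose and 0 fell (median 0.64). ISG20, an antiviral exonuclease, had 35.9 and 38.1 CPM at 36 h, against 1.25 CPM at 0 h, and IFITM1 and IFITM3, which restrict virus entry, rose 5.66-fold and 3.07-fold. With library totals alone 7 of the 33 rose and 6 fell, and without 1 library the rises lay between 7 (without the first 36 h library) and 17 (without the first 4 h library).

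Immediate early genes are the first transcription factors and phosphatases to follow growth factor signals. Of these, 7 of 24 measured rose and 3 fell. FOSL2 and JUNB, AP-1 subunits, rose 3.05-fold and 3.02-fold, DUSP1, a phosphatase of MAP kinases, had 952 and 990.1 CPM at 36 h, against 337 CPM at 0 h, and FOSB, another AP-1 subunit, had 13.5 and 9.66 CPM at 36 h, against 34.1 CPM at 0 h. Without 1 library, immediate early genes had 5 to 11 rises (fewest without the first 36 h library, most without the second 4 h library) and 1 to 5 falls (fewest without the first 36 h library, most without the first 4 h library). Among EGF receptors and ligands 2 of 12 measured rose and 4 fell. EREG and TGFA, ligands of the EGF receptor, rose 3.02-fold and 2.73-fold, while AREG, another ligand, and NRG1, a ligand of ERBB3 and ERBB4, fell 2.74-fold and 4.52-fold. LRIG1, which promotes EGF receptor breakdown, had 11.1 and 9.2 CPM at 36 h, against 40.0 CPM at 0 h. Among TGF-beta, activin and BMP genes 11 of 25 measured rose and 2 fell: INHBA, the activin A subunit, had 99.1 and 86.1 CPM at 36 h, against 6.45 CPM at 0 h, BMP2 rose 14.8-fold and TGFB3 9.48-fold, and TGFBR3, the co-receptor betaglycan, fell 3.88-fold. Without 1 library the last list had 1 to 3 falls (fewest without the second 36 h library, most without the first 4 h library).

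Matrix proteases cut the proteins around cells and integrins hold on to them. Of matrix proteases and their inhibitors, 13 of 20 measured rose and 3 fell (median log2 fold change 2.48). ADAM19, a membrane metalloprotease, had 290.4 and 304 CPM at 36 h, against 3.14 CPM at 0 h (log2 fold change 6.56, SE 0.28, adjusted p = 1.78e-05). CTSL1, cathepsin L, had 1850 and 1976 CPM at 36 h, against 25.4 CPM at 0 h (log2 fold change 6.24, SE 0.27, adjusted p = 1.82e-05), and CTSB, cathepsin B, had 4138 and 3361 CPM at 36 h, against 169 CPM at 0 h (log2 fold change 4.47, SE 0.28, adjusted p = 5.51e-05). The 2 cathepsins are lysosomal cysteine proteases that tumour cells can secrete, and their 36 h libraries lay far above 0 h. PLAU, urokinase, had 242 and 170.4 CPM at 36 h, against 22.3 CPM at 0 h, and PLAUR, its receptor, had 82.8 and 76.3 CPM at 36 h, against 13.2 CPM at 0 h. MMP14, a membrane-type collagenase, rose 6.43-fold. PLAT, tissue plasminogen activator, TIMP3, an inhibitor of metalloproteases, and MMP28 fell 3.43-fold, 3.94-fold and 2.09-fold. Without any 1 library 13 or 14 rose.

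Of integrins and laminins, 12 of 22 measured rose and 1 fell (median 0.81). ITGA5, the fibronectin receptor subunit, had 826 and 739.5 CPM at 36 h, against 76.4 CPM at 0 h (log2 fold change 3.36, SE 0.22, adjusted p = 7.79e-05). ITGA2, a collagen receptor subunit, had 1588 and 1686 CPM at 36 h, against 271 CPM at 0 h, and LAMB3, a chain of the basement membrane protein laminin-332, had 4400 and 3745 CPM at 36 h, against 551 CPM at 0 h. ITGB6 and ITGB8, partners of ITGAV that release active TGF-beta, rose 4.85-fold and 4.75-fold. DST, the hemidesmosome linker dystonin, had 836 and 652 CPM at 36 h, against 1719 CPM at 0 h and fell. The row that joins ITGB3 with C17orf57 rose by 3.83 on the log2 scale. Among matrix and matricellular proteins 9 of 20 measured rose and 4 fell: LOXL2 and LOX, which cross-link collagen, rose 5.4-fold and 6.84-fold, COL4A1, a basement membrane collagen, had 488 and 466 CPM at 36 h, against 112 CPM at 0 h, and CTGF and CYR61 fell 5.74-fold and 4.6-fold. Without 1 library, matrix proteins had 3 to 8 falls (fewest without the first 36 h library, most without the first 4 h library), and 6 rose and 8 fell with library totals alone.

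Of tight junction and polarity genes, 2 of 19 measured rose and 2 fell. CLDN1, claudin-1, had 70.3 CPM at 0 h, 481 and 471 at 4 h, 30.9 at 12 h and 9.98 and 12.1 at 36 h, so 36 h was below 0 h while both 4 h libraries were above it (log2 fold change -2.68, SE 0.19, adjusted p = 0.000103 for 36 h over 0 h). Without 1 library, tight junction genes had 1 to 4 rises (fewest without the first 36 h library, most without the second 4 h library) and 1 to 5 falls (fewest without the second 36 h library, most without the first 4 h library), and 1 rose and 6 fell with library totals alone. Of desmosome genes, 1 of 9 measured rose and 1 fell, both within 2-fold, and without 1 library 1 to 2 rises (fewest without the 12 h library, most without the first 4 h library) and 0 to 1 falls (fewest without the first 36 h library, most without the 12 h library), or with library totals alone 1 rose and 2 fell. Of cadherins and genes of epithelial-mesenchymal transition, 6 of 18 measured rose and 2 fell. SNAI1, ZEB1 and ZEB2, transcription factors that repress epithelial genes, rose 7.74-fold, 2.5-fold and 3.13-fold. KLF4 and OVOL1, transcription factors that favour the epithelial state, fell 3.87-fold and 5.03-fold. E-cadherin (CDH1) had 89.6 and 82.3 CPM at 36 h, against 105 CPM at 0 h (adjusted p = 0.324) and vimentin (VIM) had 381 and 361 CPM at 36 h, against 280.1 CPM at 0 h (adjusted p = 0.158). The rises in this list numbered between 3 (without either 36 h library) and 9 (without either 4 h library), and with library totals alone 3 rose and 7 fell.

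Keratins are the intermediate filaments of epithelia. Of basal keratins and epithelial factors, 4 of 17 measured rose and 6 fell. KRT6A, a keratin of wounded and hyperproliferative epithelium, had 4992 and 4104 CPM at 36 h, against 904 CPM at 0 h (log2 fold change 2.33, SE 0.25, adjusted p = 0.000644), and KRT6B and KRT6C rose 17.8-fold and 27.9-fold, although reads cannot be shared out surely among these near-identical genes. KRT5, the basal keratin, had 2233 and 2088 CPM at 36 h, against 4294 CPM at 0 h (log2 fold change -0.99, SE 0.20, adjusted p = 0.0117). KRT81, a hair-type keratin, had 227 and 238 CPM at 36 h, against 1321 CPM at 0 h (log2 fold change -2.51, SE 0.19, adjusted p = 0.000128). SOX9 and TP63, transcription factors of progenitor and basal cells, fell 5.28-fold and 2.2-fold. Of luminal keratins and factors 2 of 14 measured rose and 2 fell: ELF3, an epithelial ETS factor, rose 8.1-fold, and CD24, a surface protein low in mammary stem-like cells, had 39.4 and 54.6 CPM at 36 h, against 168 CPM at 0 h. The deposited locus of this CD24 row is on chromosome Y. Whether its fragments came from similar sequence elsewhere in the genome was not tested, so the fall is that of the row. Luminal genes had 1 to 5 falls (fewest without the first 36 h library, most without the first 4 h library) without 1 library, and with library totals alone 1 rose and 7 fell. Of cornified envelope genes 3 of 12 measured rose and 3 fell, with SPINK5, a protease inhibitor of skin, up 6.98-fold and KRT10 down 3.41-fold, and with library totals alone 3 rose and 4 fell.

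Of the S-phase and replication list 0 of 33 measured rose and 20 fell, with a median log2 fold change of -0.88, and 30 of the 33 lay below 0 h in both 36 h libraries. MCM2, a subunit of the replicative helicase, had 105 CPM at 0 h, 110.1 and 122 at 4 h, 189 at 12 h and 44.2 and 42 at 36 h. PCNA, the sliding clamp of DNA polymerases, had 27.5 and 30.7 CPM at 36 h, against 76.1 CPM at 0 h (log2 fold change -1.39, SE 0.20, adjusted p = 0.00329). E2F2, a transcription factor of S-phase entry, had 0.946 and 1.86 CPM at 36 h, against 9.92 CPM at 0 h. E2F1, another, had 2.22 and 2.51 CPM at 36 h, against 8.65 CPM at 0 h. All 33 genes were above their 0 h level in the single 12 h library, and the summed level of the list was 1869 CPM at 0 h, 1792 and 1927 at 4 h, 3091 at 12 h and 1079 and 1100 at 36 h. The number of falls was between 12 (without the first 36 h library) and 26 (without the first 4 h library), 29 with library totals alone and 10 with limma on log2(FPKM + 1).

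Of the mitosis and spindle list 0 of 34 measured rose and 4 fell (median -0.36). PLK1, a mitotic kinase, had 29.9 and 24.8 CPM at 36 h, against 51.8 CPM at 0 h (log2 fold change -0.92, SE 0.20, adjusted p = 0.018), and FOXM1, a transcription factor of mitotic genes, had 21 and 21 CPM at 36 h, against 41.1 CPM at 0 h (log2 fold change -0.97, SE 0.26, adjusted p = 0.0369). Without the second 36 h library 0 of these genes passed, without the first 4 h library 12 did, and with library totals alone 24 fell. Of G1 cyclins and CDK inhibitors 2 of 14 measured rose and 2 fell: CCNG2, an atypical cyclin of quiescent cells, had 237 and 269.8 CPM at 36 h, against 41.6 CPM at 0 h, and CCND2, cyclin D2, fell 3.07-fold. Without 1 library, G1 genes had 2 to 5 rises (fewest without the 12 h library, most without the second 4 h library) and 1 to 4 falls (fewest without the second 36 h library, most without the first 4 h library), and 2 rose and 6 fell with library totals alone. Of replication-type histones 0 of 17 rose and 0 fell by edgeR. PolyA selection, which the labels state, is known to capture such RNA poorly. HIST1H1C had 470.2 and 517 CPM at 36 h, against 445 CPM at 0 h (adjusted p = 0.785). Without 1 library histones had 0 to 3 falls (fewest without the 12 h library, most without the first 4 h library), and with library totals alone 0 rose and 2 fell.

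Cells answer low oxygen through HIF1A, which raises angiogenic, glycolytic and matrix-modifying genes. Of hypoxia response genes 13 of 23 measured rose and 1 fell (median 1.13), and without any 1 library 12 to 17 rose. HIF1A had 1443 and 1421 CPM at 36 h, against 286 CPM at 0 h (log2 fold change 2.32, SE 0.21, adjusted p = 0.00032). VEGFA, the main angiogenic factor, had 304 and 236 CPM at 36 h, against 44.4 CPM at 0 h (log2 fold change 2.61, SE 0.24, adjusted p = 0.000323), and NDRG1 had 583 and 629 CPM at 36 h, against 41.5 CPM at 0 h (log2 fold change 3.87, SE 0.22, adjusted p = 4.01e-05). EGLN3, a prolyl hydroxylase that marks HIF1A for breakdown, rose 10.9-fold. Of glycolysis genes 8 of 27 measured rose and 1 fell: SLC2A3, a glucose transporter, had 95.8 and 91 CPM at 36 h, against 12.8 CPM at 0 h, PFKFB3, which makes the activator of phosphofructokinase, rose 4.21-fold, and PDK4, which holds back pyruvate oxidation, fell 2.66-fold. Without 1 library, glycolysis genes had 5 to 9 rises (fewest without the second 36 h library, most without the first 4 h library) and 1 to 4 falls (fewest without the 12 h library, most without the first 4 h library). With library totals alone 4 glycolysis genes rose and 4 fell, and the median changed sign to -0.13.

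NRF2 is the transcription factor that drives glutathione and quinone-detoxifying enzymes. Of NRF2 antioxidant genes 3 of 26 measured rose and 12 fell (median -0.59). NQO1, a quinone reductase, had 109.7 and 136 CPM at 36 h, against 548 CPM at 0 h (log2 fold change -2.16, SE 0.21, adjusted p = 0.00048), and GCLC, the rate-limiting enzyme of glutathione synthesis, had 57.6 and 46 CPM at 36 h, against 214 CPM at 0 h (log2 fold change -2.04, SE 0.20, adjusted p = 0.00048). HMOX1, heme oxygenase, and FTH1, ferritin heavy chain, rose 2.83-fold and 2.28-fold, whereas FTL, ferritin light chain, fell 2.64-fold. ATF4 is the transcription factor of amino acid shortage. Of its amino acid genes 3 of 30 measured rose and 10 fell (median -0.41). SLC7A5, a transporter of large neutral amino acids, had 18.6 and 15.1 CPM at 36 h, against 139 CPM at 0 h (log2 fold change -3.04, SE 0.23, adjusted p = 0.000135), and its partner SLC3A2 had 88.3 and 87.5 CPM at 36 h, against 298 CPM at 0 h. ASNS, asparagine synthetase, and PHGDH, the first enzyme of serine synthesis, fell 4.8-fold and 3.61-fold. SLC38A2, another amino acid transporter, went the other way, with 3661 and 3807 CPM at 36 h, against 904 CPM at 0 h. Without 1 library, ATF4 genes had 2 to 6 rises (fewest without the first 36 h library, most without the first 4 h library).

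YAP and TAZ are transcriptional co-activators that respond to cell contact and tension. Of their pathway and targets 4 of 21 measured rose and 9 fell (median -0.56). CYR61, a matricellular target gene, had 8.37 and 11.3 CPM at 36 h, against 44.9 CPM at 0 h. AXL, a receptor kinase, had 57.5 and 59.6 CPM at 36 h, against 179.6 CPM at 0 h (log2 fold change -1.62, SE 0.19, adjusted p = 0.0011), and CRIM1 and FJX1 fell 2.75-fold and 3.71-fold. NT5E, the ecto-nucleotidase CD73, rose, with 1368 and 1486 CPM at 36 h, against 106 CPM at 0 h (log2 fold change 3.75, SE 0.23, adjusted p = 5.51e-05). Of sterol and fatty acid synthesis genes 5 of 32 measured rose and 5 fell. FASN, fatty acid synthase, had 399 and 339.6 CPM at 36 h, against 978 CPM at 0 h. Without 1 library, sterol and fatty acid genes had 2 to 10 rises (fewest without the second 36 h library, most without the second 4 h library) and 4 to 9 falls (fewest without the first 36 h library, most without the first 4 h library), and 3 rose and 12 fell with library totals alone. Of lipid storage and eicosanoid genes 5 of 16 measured rose and 4 fell: CPT1A, which brings fatty acids into mitochondria, fell 3.38-fold, and PTGS2, the inducible cyclooxygenase, rose 2.62-fold. Without 1 library, lipid storage genes had 1 to 6 rises (fewest without the second 36 h library, most without the first 4 h library), and 2 rose and 8 fell with library totals alone.

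**Figure D3:**
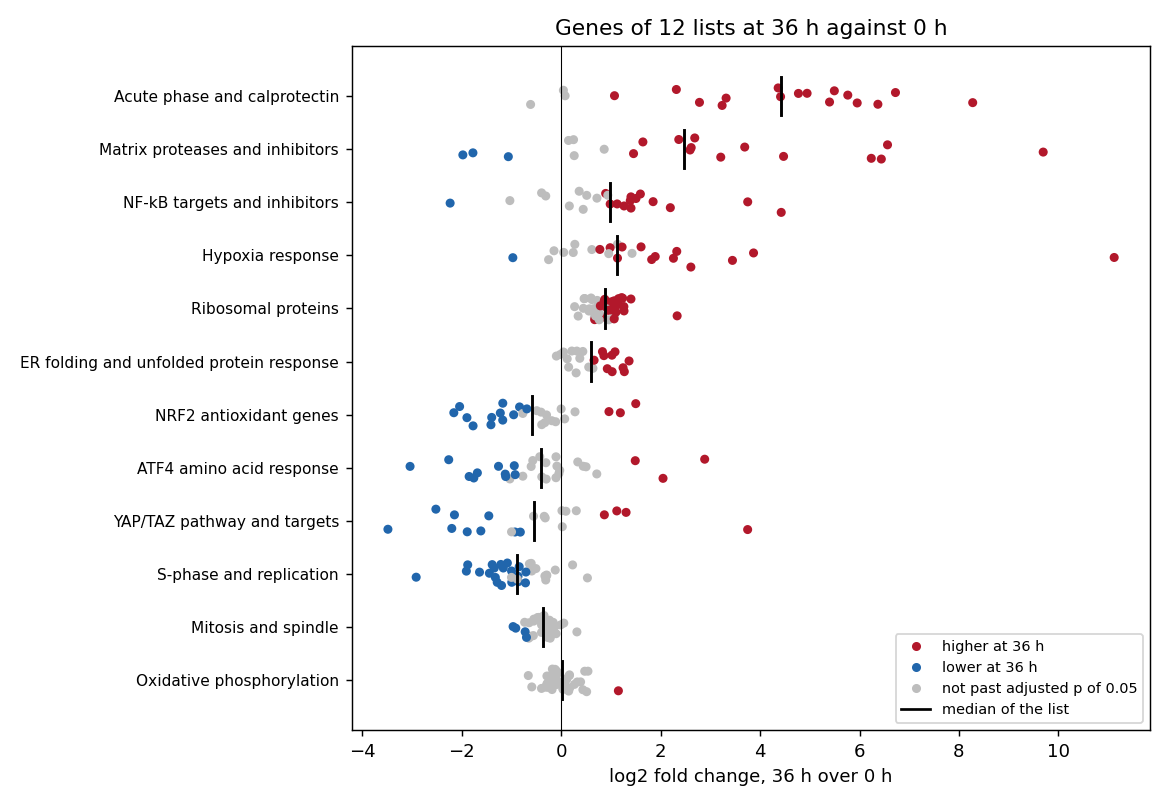
Log2 fold change at 36 h over 0 h of each measured gene in 12 lists (points, spread vertically for legibility), with the median of each list as a bar. Red genes were higher at 36 h, blue genes lower and grey genes did not pass. The medians run from 4.41 for acute phase and calprotectin genes to -0.88 for S-phase genes, and oxidative phosphorylation genes sit around 0.

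All 47 ribosomal protein genes measured were above their 0 h level in both 36 h libraries. Of these genes 27 of 47 measured rose and 0 fell (median 0.88), RPL11 and RPL12 being parts of the large subunit. RPL11 had 616 and 589.8 CPM at 36 h, against 251 CPM at 0 h, and RPL12 had 713 and 806 CPM at 36 h, against 327 CPM at 0 h. The log2 fold changes of the 47 genes ran from 0.27 to 2.33, and many have processed copies elsewhere in the genome. The count is unstable: 17 rose without the second 36 h library, 45 without the first 4 h library, 8 with library totals alone and 2 with limma on log2(FPKM + 1). Of ribosome biogenesis genes, which build the particle, 0 of 32 measured rose and 5 fell, with RRS1 down 2.8-fold. Without 1 library these had 2 to 10 falls (fewest without the second 36 h library, most without the first 4 h library).

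Of the unfolded protein response list 10 of 22 measured rose and 0 fell (median 0.59), between 5 without the first 36 h library and 14 without the second 4 h library, and 4 with library totals alone. CALR, the lectin chaperone calreticulin, had 1019 and 879.7 CPM at 36 h, against 394 CPM at 0 h, and DNAJB9, a co-chaperone, rose 2.57-fold. Of heat shock genes 0 of 23 measured rose and 2 fell, and of lysosome and autophagy genes 6 of 29 measured rose and 0 fell, with NPC1, a cholesterol exporter of lysosomes, up 2.66-fold. Heat shock genes had 0 to 2 rises (fewest without the 12 h library, most without the second 4 h library) and 1 to 3 falls (fewest without the first 36 h library, most without the first 4 h library) without 1 library. Lysosome rises numbered between 3 (without the first 36 h library) and 12 (without the first 4 h library), and with library totals alone 3 rose and 4 fell. Of metallothionein and zinc genes 6 of 10 measured rose and 0 fell: MT1X, a zinc- and copper-binding protein, had 1114 and 1669 CPM at 36 h, against 69.1 CPM at 0 h, and SLC39A8, a zinc importer, had 1339 and 1329 CPM at 36 h, against 96.5 CPM at 0 h. Metallothionein genes are near-identical, and MT1A and MT2A share 1 row here. Without 1 library, metallothionein genes had 3 to 7 rises (fewest without the second 36 h library, most without the first 4 h library) and 0 to 2 falls (fewest without the 12 h library, most without the first 4 h library).

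Of apoptosis regulators 11 of 25 measured rose and 1 fell: MCL1, a BCL2-family survival protein, had 4117 and 4424 CPM at 36 h, against 1343 CPM at 0 h (log2 fold change 1.67, SE 0.22, adjusted p = 0.00197), and BMF, a pro-death member, rose 12.6-fold, and BCL2 fell 2.24-fold. Without 1 library there were 6 to 15 rises (fewest without the second 36 h library, most without the first 4 h library) and 0 to 2 falls (fewest without the first 36 h library, most without the first 4 h library). Of genes that FOXO factors raise when PI3K is low, 8 of 23 measured rose and 3 fell, with KLF9, a zinc finger repressor, up 9.17-fold, and with library totals alone 6 rose and 6 fell. Of Notch and Wnt genes 7 of 22 measured rose and 4 fell: WNT7B rose 8.13-fold, and SFRP1, a secreted Wnt antagonist, had 33.5 and 27 CPM at 36 h, against 113 CPM at 0 h. Without 1 library, Notch and Wnt genes had 2 to 8 rises (fewest without the second 36 h library, most without the second 4 h library) and 4 to 8 falls (fewest without the 12 h library, most without the first 4 h library), and 2 rose and 9 fell with library totals alone. Of Eph receptors, ephrins and semaphorins 6 of 22 measured rose and 5 fell, with SEMA4B up 5.44-fold and SEMA3C down 3.21-fold. Without 1 library, Eph and semaphorin genes had 2 to 8 rises (fewest without the first 36 h library, most without the first 4 h library), and 2 rose and 7 fell with library totals alone.

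The medium holds a glucocorticoid and the drug binds the estrogen receptor. Of glucocorticoid targets 5 of 13 measured rose and 0 fell, and of estrogen receptor targets 2 of 10 measured rose and 2 fell: NRIP1, a co-repressor, rose 3.51-fold and STC2 fell 1.96-fold. Of circadian clock genes 4 of 14 measured rose and 1 fell, with ARNTL2, a partner of CLOCK, at 343 and 356 CPM at 36 h, against 54.1 CPM at 0 h. Without 1 library, glucocorticoid targets had 3 to 6 rises (fewest without the second 36 h library, most without the second 4 h library) and 0 to 3 falls (fewest without the 12 h library, most without the first 4 h library), estrogen receptor targets 1 to 3 rises (fewest without the second 36 h library, most without the first 4 h library) and clock genes 2 to 4 rises (fewest without the second 36 h library, most without the 12 h library) and 0 to 3 falls (fewest without the first 36 h library, most without the first 4 h library). With library totals alone 3 rose and 2 fell among glucocorticoid targets, 2 rose and 3 fell among estrogen receptor targets and 3 rose and 3 fell among clock genes. Of oxidative phosphorylation genes 1 of 37 measured rose and 0 fell, of proteasome genes 0 of 28 measured rose and 1 fell, and of SR proteins and hnRNPs, which act in splicing, 1 of 22 measured rose and 2 fell. Without 1 library the rises in oxidative phosphorylation numbered between 0 (second 36 h library) and 6 (second 4 h library), those in the proteasome between 0 (12 h library) and 2 (first 4 h library), and the falls in splicing genes between 1 (first 36 h library) and 8 (first 4 h library). With library totals alone 1 rose and 7 fell in oxidative phosphorylation, 0 rose and 8 fell in the proteasome and 0 rose and 10 fell among splicing genes. ATP5B, a subunit of ATP synthase, had 610.0 and 769 CPM at 36 h, against 752 CPM at 0 h (adjusted p = 0.714).

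**Figure D4:**
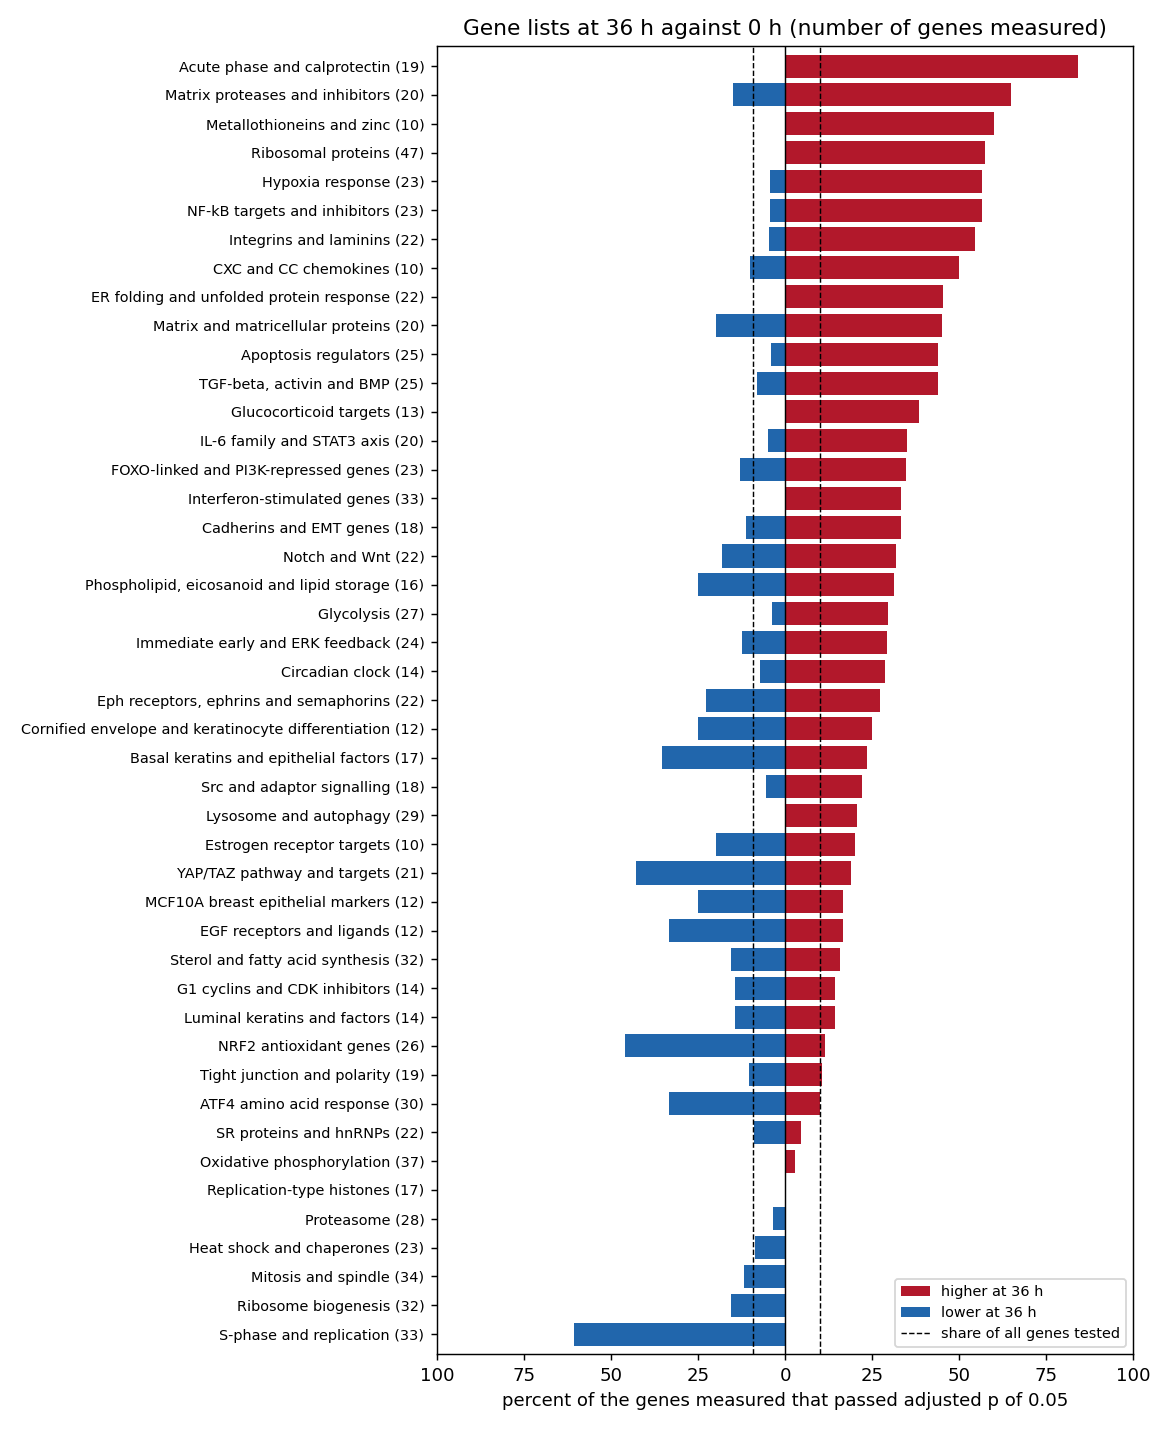
Share of the measured genes of each list shown, all with 10 or more measured, that was higher (red, to the right) or lower (blue, to the left) at 36 h at an adjusted p under 0.05, with the number measured after each name. Dashed lines mark the shares over all 15572 genes tested, 9.99% higher and 9.36% lower. Acute phase and calprotectin genes stand at the top and S-phase genes at the bottom.

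Markers of other cell types were looked at because several of the rises are known from immune cells. Of 21 immune and blood markers 6 were measured, of which 4 rose and 0 fell: LCP1, an actin bundler of leukocytes that carcinomas also express, had 136 and 141 CPM at 36 h, against 44.1 CPM at 0 h, CD68 had 87 and 46.6 CPM at 36 h, against 8.89 CPM at 0 h, CD14 had 16.7 and 19.2 CPM at 36 h, against 6.66 CPM at 0 h, and GZMB is given above. Their summed level was 161 and 166 FPKM at 36 h, against 22.9 FPKM at 0 h. MS4A1, HBB and TYROBP were listed at 0 in all 3 libraries, and CD3E, CD3D and PTPRC at 0 in at least 1 of the 36 h libraries. Fibroblast markers summed to 135 and 161 FPKM at 36 h, against 94.6 FPKM at 0 h, with COL1A2 listed at 0 in the 3 libraries. Of 11 such markers 4 were measured, of which 2 rose and 0 fell. DCN and FAP were up 3.75-fold and 3.16-fold, while FBLN1 (log2 fold change -0.74) and the row that joins PDGFRA with FIP1L1 did not pass. Endothelial markers summed to 6.32 and 6.31 FPKM at 36 h, against 1.43 FPKM at 0 h, with TEK alone passing the test, while CDH5, TIE1 and EMCN were listed at 0 in the 3 libraries. Adipocyte markers summed to at most 1.01 FPKM in any of them. The part of these markers in the results was not tested, and a change in the number of cells of a type and a change in RNA per cell cannot be told apart.

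Of the 3637 lincRNA rows tested, 284 rose, where 7.19% of all lincRNA rows tested were higher, and 351 fell, where 9.27% were lower. Of these, 85 rose by 8-fold or more and 18 fell by as much. The largest rises included linc-STC1-AS, with 2951 and 3566 CPM at 36 h, against 1.68 CPM at 0 h, linc-SERPINB4-AS, with 173 and 165 CPM at 36 h, against 0.36 CPM at 0 h, and linc-TNC-AS, with 52.9 and 32.6 CPM at 36 h, against 0.206 CPM at 0 h. These rows have the same deposited locus as STC1, SERPINB3,SERPINB4 and TNC, and since the labels do not state that strand was counted, their fragments cannot be told from those of the coding genes. The row linc-DHX37-5 at chr12:126782731-126796594 (hg19) rose 296-fold, and linc-SOCS3-BP at chr17:76356510-76370690, whose deposited locus lies beside that of SOCS3, rose 229.8-fold. Among the falls, linc-POU3F4 had 6.48 and 5.76 CPM at 36 h, against 116 CPM at 0 h, linc-GCLC had 11.4 and 9.29 CPM at 36 h, against 128 CPM at 0 h, and linc-CYP1B1 had 55.9 and 42.5 CPM at 36 h, against 475 CPM at 0 h. linc-FGFBP1-AS fell 23.9-fold beside FGFBP1.

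LINC00520 over-expression in parental cells shares no library with the time course, so its values can be set beside those of 36 h. The cells compared with it were untransduced by title and mock transduced by description, and no control lincRNA library was used. Effects of LINC00520 and of the transduction itself therefore cannot be told apart here. LINC00520 itself stood at 45.2 and 44.8 CPM in transduced cells, against 0.136, 0.195 and 0.0862 CPM in untransduced cells. In that experiment 50.1% of 12790 genes passed the same test, 25.1% higher and 25% lower, and 0.446% were higher and 0.821% lower by 2-fold or more. Its rows were filtered more strictly than those of the time course, so the shares called in the 2 experiments are not directly comparable. Of 754 genes that were 2-fold or more higher at 36 h and tested in both, 188 (24.9%) were higher and 276 (36.6%) lower with LINC00520. Of 744 that were 2-fold or more lower at 36 h, 220 (29.6%) were higher and 271 (36.4%) lower. Over all 12207 rows tested in both, 25.6% were higher and 25% lower. Of the 43 rows that were 2-fold or more higher with LINC00520, 17 (39.5%) were higher and 11 (25.6%) lower at 36 h, and of the 83 that were lower, 20 (24.1%) were higher and 23 (27.7%) lower.

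Single genes went either way. NLRP3 had 5.19 and 5.74 CPM in LINC00520 cells, against 1.83, 1.66 and 1.08 CPM in untransduced cells (log2 fold change 1.79), and was also higher at 36 h. NT5E had 275 and 263 CPM in LINC00520 cells, against 133, 131 and 135 CPM in untransduced cells (log2 fold change 1.02), and was higher at 36 h too. CAMK2B had 25.1 and 25.3 CPM in LINC00520 cells, against 92.9, 106 and 99.1 CPM in untransduced cells (log2 fold change -1.98), and was lower at 36 h as well. S100A9 had 55.0 and 54.1 CPM in LINC00520 cells, against 92.4, 106 and 100.4 CPM in untransduced cells (log2 fold change -0.86), and SOD2 had 191 and 183 CPM against 353, 374 and 383 (log2 fold change -0.98), both lower there and higher at 36 h. These 5 genes were chosen after their values were seen.

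**Figure D5:**
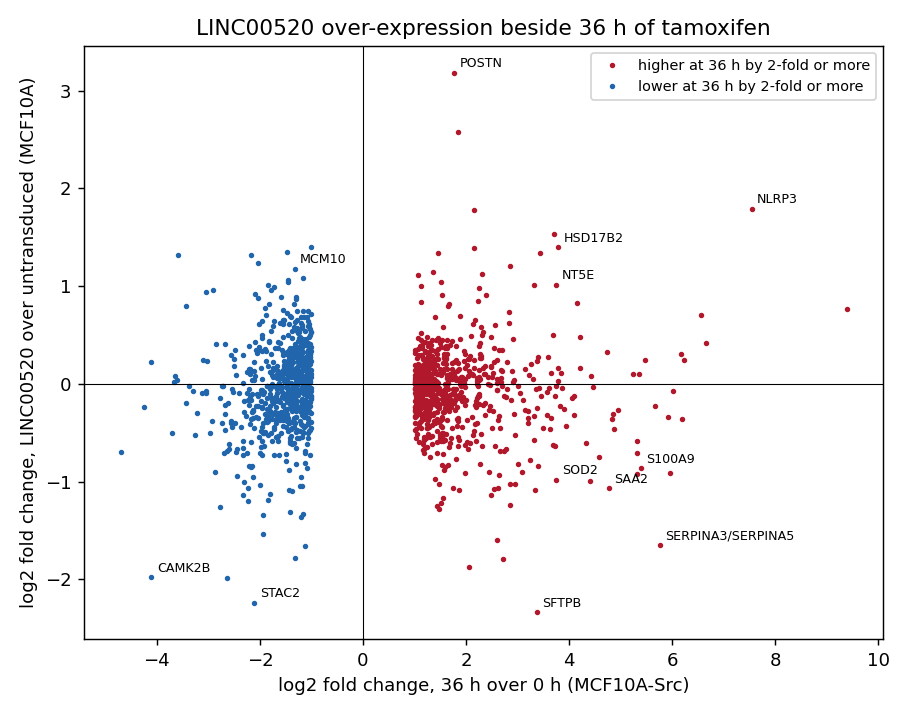
Log2 fold change with LINC00520 over-expression in MCF10A (vertical) against log2 fold change at 36 h over 0 h in MCF10A-Src (horizontal), for genes that were higher (red) or lower (blue) at 36 h by 2-fold or more and tested in both, without LINC00520 itself. Both colours spread above and below 0 on the vertical axis.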

How the data were processed

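RNA levels were measured in MCF10A-Src and parental MCF10A cells. Reads were processed with CASAVA 1.4, TopHat and Cuffdiff on hg19, per the submitters' processing notes, which give no role or order. The deposited tables hold, per the file headers, raw fragments (estimated counts), FPKM, a score from the authors' test, and p-values and q-values. The fragments were rounded to whole numbers. Rows with an FPKM of 1 in at least 1 library were tested with edgeR 4.0.16 (quasi-likelihood, TMM scaling, Benjamini-Hochberg adjusted p, limma 3.58.1, R 4.3.3), 15572 genes in 6 libraries with 2 residual degrees of freedom. CPM are TMM-scaled. DESeq2 1.42.0, limma, other scalings and left-out libraries were alternatives. On simulated data with 15572 genes, 34% of 2-fold and 98% of 4-fold changes were recovered. The simulation gave every gene the same spread and changed only a small part of the genes, none of very low level. These rates therefore need not hold for the real genes. The interval and the floor of 3 fragments over the group cover counting error only.

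Genes were named by size of change, difference in CPM, few fragments in 1 group and up to 4 members of smallest p per list. Members and lists were chosen with earlier results of these data known. The columns of 7 libraries in the over-expression values were not used, and libraries of control lincRNAs were not analysed here. Results for some genes and rows are not reported here.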

Additional observations from a re-analysis of the deposited data

How the results depend on the processing

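Of 3014 calls at 36 h against 0 h, library totals alone gave 5034 (1033 higher, 4001 lower), limma on log2(FPKM + 1) 1554 (1015 and 539), limma on log2(FPKM + 0.1) 1320 (905 and 415), no FPKM filter 5065 (2841 lower) and the 36 h and 0 h libraries alone 5981 (3050 and 2931). Falls of 2-fold or more numbered 1020, and 2397 with library totals, 384 and 388 with limma at pseudocounts of 1 and 0.1, and 1921 with no FPKM filter. Leaving out 1 library gave 1923 to 6054 calls, 1108 to 2878 higher and 815 to 3367 lower. Calls in the gene lists numbered 393, and 231 and 211 with limma. Of 255 named genes that passed, 0 changed sign under the settings that could test them, and of 20 that did not pass 8 changed sign, ATP5B and HIST1H1C among them. With the replicate number as a block, 3618 genes were called (1696 higher, 1922 lower), 424 in the gene lists, and 6325 with LINC00520. Per-gene deviations from the group mean correlated between same-numbered libraries at 0.078 in the time course and at -0.028 and -0.041 in the over-expression. The numbers were therefore not taken to pair libraries. The 0 h group has 1 library, so its spread is assumed to be that of the 4 h and 36 h pairs. These pairs were unlike: the median chi-square per gene, relative to counting error alone, was 14.4 at 4 h and 4.01 at 36 h. Low genes at 36 h are limited by the depth of the second library. The cause of these shifts was not tested.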

Other observations

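Gene families were counted by symbol after their values were seen. Over all genes tested 9.99% rose and 9.36% fell. Of 11 protocadherin rows (cell adhesion molecules) 6 rose and 1 fell at 36 h. Of 359 zinc finger (ZNF) rows 9 rose and 20 fell, and of 194 solute carrier rows 16 rose and 32 fell. Of 11 HOX rows 0 rose and 0 fell by edgeR, and of 75 mitochondrial ribosomal protein rows 1 rose and 2 fell.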
